A study of Mus musculus with 4 samples.

Results

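Stra8, Gm4969, Meioc and Ythdc2 are the genes of the switch by which mouse germ cells leave mitosis and enter meiosis. They were chosen by name for that role, as the 4 rows of the deposited table, of 31600 in all, that carry these symbols. Gm4969 is the symbol the table uses for the gene now called Meiosin. Long RNA was sequenced from cells labelled as mouse spermatogonial stem cells, the stem cell pool from which sperm production is renewed. The differentiation group had 2 libraries, whose genotype field reads Differentiation, and the control group had 2 libraries, whose genotype field reads WT. All 4 libraries carry the same cell type label, and no agent, time or age of the animals is given in the sources used here. Nothing in the labels ties replicate libraries to separate cultures or animals, so p-values measure only the spread between these libraries, which may be technical.

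In the mouse, retinoic acid switches on Stra8, and the STRA8 protein pairs with MEIOSIN to turn on a large set of meiotic genes. A second layer acts on RNA: MEIOC binds YTHDC2, an RNA helicase with a domain that reads N6-methyladenosine (m6A), and together they lower transcripts of the mitotic cycle such as Ccna2. Mice that lack any of these genes are sterile, with germ cells that fail at or soon after meiotic entry.

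Values were FPKM, in which fragments are divided by exon length and by library depth, so levels can be compared between genes. Nearly all low values were whole numbers of fragments at a scale of 17769900 to 20647000 fragments per library. The deposited values of markers describe what the libraries held. Summed over 17 genes of undifferentiated spermatogonia, the level was 57.2 to 57.8 FPKM in differentiation libraries, against 165 to 169 FPKM in control libraries. Summed over 8 genes of differentiating spermatogonia, with Stra8 left out of that list of 9, it was 94.6 to 98.2 FPKM in differentiation and 239 to 241 FPKM in control. With Stra8 the sum was 236 to 237 FPKM in differentiation and 472 to 482 FPKM in control. Markers of pachytene spermatocytes and spermatids, 16 genes in the table, summed to 640 to 651 FPKM in differentiation and 24.4 to 24.8 FPKM in control. Somatic RNA was present in both groups. Fibroblast and peritubular markers (14 genes) summed to 182 to 194 FPKM in differentiation and 509 to 516 FPKM in control. At a limma adjusted p under 0.05, 29.6% of all features tested rose and 27.0% fell. Leukocyte markers (11 genes) summed to 20.3 to 21.0 FPKM in differentiation and 65.0 to 68.8 FPKM in control. Of 9 leukocyte markers tested, 7 fell (77.8%) and 1 rose (11.1%). Leydig markers (6 genes) summed to 24.3 to 25.1 FPKM in differentiation and 42.9 to 44.2 FPKM in control, and 3 of 5 tested fell and 1 rose. Sertoli markers (10 genes) summed to 128 to 138 FPKM in differentiation and 124 to 126 FPKM in control. Of 9 Sertoli markers tested, 4 rose (44.4%) and 3 fell (33.3%), and these counts are not read as set apart from all features. No marker in the table was at 0 in every library. In bulk RNA, fewer cells of a type and less RNA per cell cannot be told apart, and the part that the mixture of cells has in the results that follow was not tested.

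The comparison asks how the switch genes stood in differentiation relative to control. Stra8 fell, while Gm4969, Meioc and Ythdc2 rose, Meioc by the most. All 4 genes were called at a limma adjusted p under 0.05, where 56.6% of the 23138 features tested were called, 29.6% as higher and 27.0% as lower. The groups did not overlap for any of the 4 genes, as for 79.9% of the features tested. With so many features called, a call alone does not set these genes apart, and the sizes and directions are the description.

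Stra8 (ENSMUSG00000029848; GRCm38 chromosome 6, 34920163 to 34939344, plus strand) encodes the retinoic acid-induced partner of MEIOSIN. It stood at 139 and 141 FPKM in the differentiation libraries, against 241 and 233 FPKM in the control libraries. Both differentiation libraries lay far below both control libraries. The means were 140 ± 1.77 FPKM in differentiation and 237 ± 5.68 FPKM in control (SD, n = 2 each), a ratio of 0.590. On the log2(FPKM + 1) scale the fold change was -0.76, with an SE of 0.03 and a limma adjusted p of 2.92e-04. These values rest on 4437 and 5177 fragments in differentiation and 8453 and 8670 in control. Even so, Stra8 remained an abundant transcript: among 18287 protein-coding features it ranked 59th and 54th in the differentiation libraries and 26th in each control library.

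Retinoic acid receptors bind elements built from the hexamer AGGTCA, and CNCCTCAG is the consensus that has been described for STRA8 binding in the mouse. RefSeq promoter windows on GRCm38.p6, 250 bases before to 50 bases after a start site, were found for 2 of the 4 genes. They are shown for Stra8, the retinoic acid target, and for Meioc, the gene that rose most. Capitals mark AGGTCA and the last 6 letters of the STRA8 consensus, CCTCAG, on either strand.
Stra8, chr6:34920698-34920997, plus strand: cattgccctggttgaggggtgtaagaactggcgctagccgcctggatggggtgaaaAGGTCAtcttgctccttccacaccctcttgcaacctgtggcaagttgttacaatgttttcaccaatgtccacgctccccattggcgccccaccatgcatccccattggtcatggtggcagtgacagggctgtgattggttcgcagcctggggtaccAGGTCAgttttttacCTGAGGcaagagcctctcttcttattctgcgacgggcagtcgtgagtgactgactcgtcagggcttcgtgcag
Meioc, chr11:102665335-102665634, plus strand: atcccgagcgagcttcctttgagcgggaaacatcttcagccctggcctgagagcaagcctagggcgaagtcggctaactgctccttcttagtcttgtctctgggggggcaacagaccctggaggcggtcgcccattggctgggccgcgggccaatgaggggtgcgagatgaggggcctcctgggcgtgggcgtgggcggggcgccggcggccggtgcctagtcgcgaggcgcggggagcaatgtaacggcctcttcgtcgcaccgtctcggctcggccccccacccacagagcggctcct
The Stra8 window held AGGTCA at 2 places on the plus strand, beginning 194 and 38 bases before the start site, and CCTCAG once on the minus strand, where the printed strand reads CTGAGG. The hexamer AGGTCA occurred in 16.3% and CCTCAG in 26.8% of all 32851 windows. The full 8-letter consensus, which contains CCTCAG, occurred in 7.94% of all windows and not in these 2. The Meioc window, with 68.3% G and C bases against 55.7% in the Stra8 window, held none of these motifs. Both windows lie inside the annotated genes, past the gene starts at 34920163 for Stra8 and 102663716 for Meioc. The sequence at those gene starts was not scanned. These are matches of letters, not measured sites. No window is shown for Gm4969 or Ythdc2.

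Gm4969 (ENSMUSG00000085601; GRCm38 chromosome 7, 19099046 to 19118368, minus strand) encodes MEIOSIN, which binds STRA8 and with it activates meiotic genes. It stood at 25.5 and 26.3 FPKM in the differentiation libraries, against 20.8 and 21.1 FPKM in the control libraries. The groups were apart, but by less than for any of the other 3 genes. The means were 25.9 ± 0.598 FPKM in differentiation and 21.0 ± 0.218 FPKM in control (SD, n = 2 each), a ratio of 1.24. On the log2(FPKM + 1) scale it rose by 0.29, with an SE of 0.03 and a limma adjusted p of 3.23e-03. This size depended on scaling: after quantile normalization it was 0.15, still called (limma adjusted p = 0.0216), within a range of 1.22e-05 to 0.0272 over the alternatives. The values rest on 2127 and 2518 fragments in differentiation and 1902 and 2048 in control.

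Meioc (ENSMUSG00000051455; GRCm38 chromosome 11, 102663716 to 102682237, plus strand) encodes the germ cell protein that partners YTHDC2. It stood at 101 FPKM in each differentiation library, against 33.0 and 32.4 FPKM in the control libraries. The replicates of each group lay within 1 FPKM of each other. The means were 101 ± 0.303 FPKM in differentiation and 32.7 ± 0.370 FPKM in control (SD, n = 2 each), a ratio of 3.09. It rose by 1.60 on the log2(FPKM + 1) scale, with an SE of 0.03 and a limma adjusted p of 8.20e-05, on 8282 and 9531 fragments in differentiation and 2961 and 3092 in control. Its rank among protein-coding features was 113th and 110th in the differentiation libraries and 750th and 774th in the control libraries.

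Ythdc2 (ENSMUSG00000034653, on chromosome 18) encodes the helicase of the complex and was the lowest of the 4 genes in every library. It stood at 19.5 and 19.8 FPKM in the differentiation libraries, against 9.91 and 10.3 FPKM in the control libraries. Both differentiation libraries lay well above either control library. The means were 19.6 ± 0.260 FPKM in differentiation and 10.1 ± 0.260 FPKM in control (SD, n = 2 each), a ratio of 1.95. The rise was 0.90 on the log2(FPKM + 1) scale, with an SE of 0.04 and a limma adjusted p of 3.01e-04, on 3070 and 3584 fragments in differentiation and 1713 and 1885 in control.

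**Figure D1:**
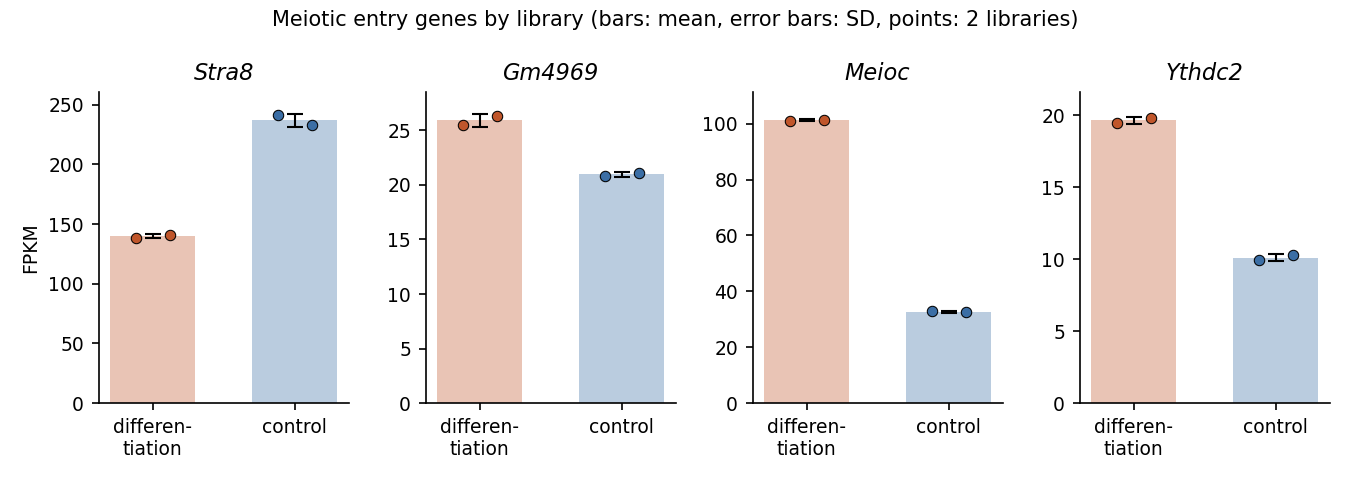
FPKM of Stra8, Gm4969, Meioc and Ythdc2 in the 2 differentiation and the 2 control libraries, with bars at the group mean, error bars of 1 SD and a point per library; each panel has its own axis from 0. Stra8 is lower in differentiation (140 against 237 FPKM in control), and the other 3 genes are higher, Meioc by a ratio of 3.09 and Gm4969 by 1.24.

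The authors' deposited table gave the same directions, with log2 fold changes of -0.76 for Stra8, 0.31 for Gm4969, 1.63 for Meioc and 0.96 for Ythdc2. Its adjusted p was 2.06e-07 for Gm4969 and smaller for the other 3. These come from the same 4 libraries and are no independent evidence. In GENCODE M21 none of the 4 genes overlaps another annotated gene, so reads of an antisense partner annotated there do not enter these values.

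**Figure D2:**
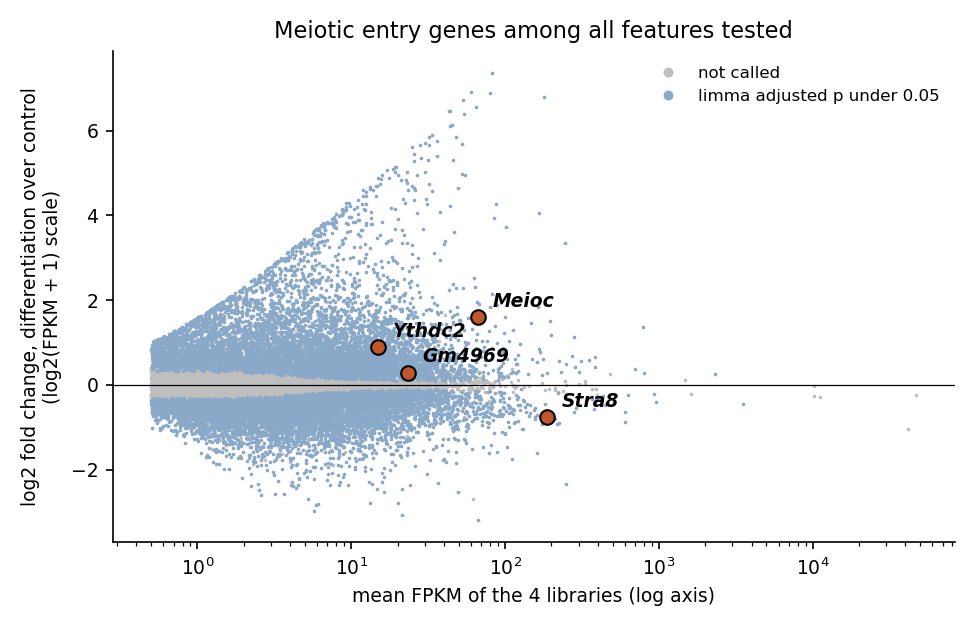
Log2 fold change of differentiation over control against the mean FPKM of the 4 libraries (log axis) for the 23138 features tested, with called features in blue, others in grey and the 4 meiotic entry genes as large points. Meioc at 1.60 and Stra8 at -0.76 lie among the more abundant features, and Gm4969 at 0.29 lies close to the line of no change.

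The order of the levels was the same in both groups: Stra8 was highest, then Meioc, Gm4969 and Ythdc2. No neighbours in this order overlapped between libraries of a group. The distances changed, however. Stra8 was 1.38 times the level of Meioc in differentiation and 7.25 times in control. Meioc was 3.90 times the level of Gm4969 in differentiation and 1.56 times in control, and Gm4969 was 1.32 times the level of Ythdc2 in differentiation and 2.08 times in control. Of the FPKM of the 4 genes together, Stra8 made up 48.7% and 48.9% in the differentiation libraries and 79.1% and 78.5% in the control libraries. Meioc made up 35.5% and 35.1% in differentiation and 10.8% and 10.9% in control. The sum itself differed less, at 284 and 289 FPKM in differentiation and 305 and 297 FPKM in control.

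Ratios of partners within a library do not depend on how libraries are scaled to each other. Gm4969 over Stra8, the ratio of the transcription factor pair, was 0.184 and 0.187 in the differentiation libraries, against 0.0864 and 0.0907 in the control libraries. The differentiation ratio was 2.09 times the control ratio, a log2 difference of 1.07, with a mean log2 ratio of -2.43 ± 0.02 in differentiation and -3.50 ± 0.05 in control (SD, n = 2 each). Meioc over Ythdc2, the ratio of the RNA-binding complex, was 5.19 and 5.11 in the differentiation libraries, against 3.32 and 3.15 in the control libraries. That is a log2 difference of 0.67, or 1.59 times. The groups did not overlap in either ratio. In an exact two-sided permutation test each gave p = 0.333, the smallest value that the 6 arrangements of 2 against 2 libraries allow.

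**Figure D3:**
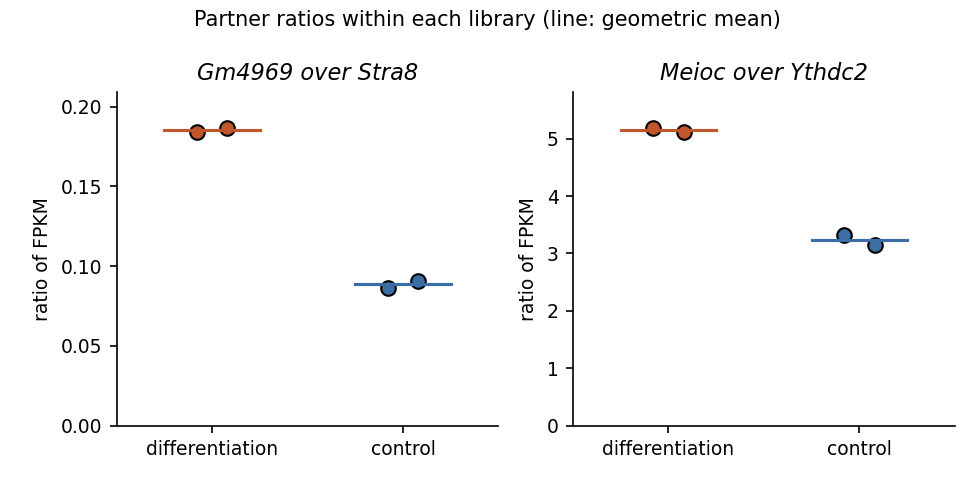
Ratio of FPKM within each library for Gm4969 over Stra8 and for Meioc over Ythdc2, with a point per library and a line at the geometric mean of the 2 libraries; both axes start at 0. Both ratios are higher in the differentiation libraries (0.184 and 0.187, and 5.19 and 5.11) than in the control libraries (0.0864 and 0.0907, and 3.32 and 3.15).

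Upstream of the switch stand genes for retinoic acid supply, its receptors and spermatogonial or chromatin regulators of Stra8. Of 27 such genes 25 were tested, 9 rose (36%, against 29.6% of all features) and 12 fell (48%, against 27.0%), with a median log2 fold change of -0.21, against 0.01 over all features tested. The share that rose lies near that of all features. Dmrt1, a transcription factor that in the mouse holds Stra8 off in undifferentiated spermatogonia, was at 11.0 FPKM in both differentiation libraries, against 50.6 and 51.2 FPKM in the control libraries. It fell, as Stra8 did, by 2.11 on the log2 scale, at a limma adjusted p of 7.36e-05. Sohlh1, a transcription factor of spermatogonia, fell to 6.48 ± 0.162 FPKM in differentiation, against 29.0 ± 0.669 FPKM in control (SD, n = 2 each). Rarg, the retinoic acid receptor of differentiating spermatogonia, fell to 3.73 ± 0.033 FPKM in differentiation, against 6.43 ± 0.554 FPKM in control. Cyp26a1, an enzyme that degrades retinoic acid and is itself induced by it, rose to 23.9 ± 0.102 FPKM in differentiation, against 9.14 ± 0.144 FPKM in control. Genes of retinoic acid supply went both ways. Stra6, Rdh10 and Aldh1a2 were called higher, with log2 fold changes of 2.45, 1.53 and 1.16. Aldh1a1 and Aldh1a3 were called lower, at -0.84 and -1.40. The receptor genes Rara and Rarb were not called. Among the retinoid X receptor genes, Rxra was called lower, at -1.27, and Rxrb higher, at 0.24, while Rxrg was too low to be tested. These supply and receptor genes were named after their values were seen. Subunits of the polycomb complex PRC1.6, which represses germline genes, went different ways. Pcgf6 rose to 37.3 ± 0.705 FPKM in differentiation, against 10.3 ± 0.010 FPKM in control (SD, n = 2 each), and L3mbtl2 rose by 0.29 on the log2 scale. E2f6, Max and Mga fell by 1.00, 0.38 and 0.20, and these 4 besides Pcgf6 were named after their values were seen. Undifferentiated spermatogonial markers fell in the same libraries, in 13 of 16 tested genes (81.2%, against 27.0% of all features) with 1 higher. Fibroblast and peritubular markers fell in 12 of 14 (85.7%) with 0 higher. Dmrt1, Sohlh1 and Sohlh2 are themselves markers of differentiating spermatogonia. Of the 4 such markers that are neither Stra8 nor on the upstream or mitotic list, 2 fell (Kit and Dnmt3b) and 0 rose. The part of these cell types in the changes was not tested.

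Genes of early meiotic prophase mostly rose. They were listed by role and not as measured targets of STRA8 and MEIOSIN. Of 37 genes listed, 36 were tested, 29 rose (80.6%, against 29.6% of all features) and 4 fell (11.1%, against 27.0%), with a median log2 fold change of 0.82, against 0.01 over all features tested. Sycp3, an axial element protein of the synaptonemal complex, was at 151 and 148 FPKM in the differentiation libraries, against 48.4 and 49.2 FPKM in the control libraries. Its log2 fold change of 1.60 was that of Meioc to 2 decimals. Sycp2, its partner in the axial element, rose to 107 ± 3.62 FPKM in differentiation, against 27.9 ± 0.359 FPKM in control (SD, n = 2 each). Hormad1, an axis protein, rose by 2.15 and Meiob, a single-strand DNA-binding protein of meiotic recombination, by 2.95 on the log2 scale. Spo11, the enzyme that makes meiotic double-strand breaks, rose to 12.2 ± 0.045 FPKM in differentiation, against 2.12 ± 0.091 FPKM in control.

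Other genes of the list rose less or fell. Dmc1, the meiotic strand exchange protein, had a log2 fold change of 0.82, and Prdm9, the methyltransferase that sets recombination sites, of 0.35. Rec8, a meiotic cohesin subunit, is a target of retinoic acid as Stra8 is. It was at 9.43 and 9.47 FPKM in the differentiation libraries, against 16.2 and 16.1 FPKM in the control libraries. Its ratio of means, 0.584, was close to the 0.590 of Stra8. Of other meiotic cohesin genes, Smc1b and Stag3 were called higher, at 0.69 and 0.60 on the log2 scale, and Rad21l was not called (-0.02). Besides Rec8, the 3 genes that fell were Mei4 and Rec114, which help SPO11 to act, and Tex11, a crossover factor. These 3 genes and the other cohesin genes were named after their values were seen. Markers of pachytene cells and spermatids rose in 12 of 13 tested genes in the same libraries (92.3%, against 29.6% of all features). Of these markers 0 were lower, against 27.0% of all features. Prm2, Odf1 and Akap4 were too low to be tested. The filter took the mean of all 4 libraries, so a gene high in only 1 group could pass it. The part of these markers in the changes was not tested. The STRA8 consensus CNCCTCAG was present in 7 of the 33 RefSeq windows (21.2%) of 28 genes on the prophase list, against 7.94% of all windows. It was present in 4 of 19 windows (21.1%) of the m6A and RNA partner list, in 4 of 34 (11.8%) of the upstream list and in 2 of 21 (9.52%) of the mitotic list. These shares are descriptions and were not tested.

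RNA partners of MEIOC and YTHDC2 and the m6A machinery moved both ways, mostly by small amounts. Of 20 genes, all were tested, 10 rose (50%, against 29.6% of all features) and 7 fell (35%, against 27.0%), with a median log2 fold change of 0.05. Without the intensity trend 6 were higher and 4 lower, while the calls over all features changed little (6697 higher and 6197 lower, against 6848 and 6246). The list's counts are therefore not read as set apart from the other features. Rbm46, an RNA-binding protein that joins MEIOC and YTHDC2 in germ cells, was at 46.2 and 43.7 FPKM in the differentiation libraries, against 23.7 and 23.4 FPKM in the control libraries. On the log2 scale it rose by 0.91, at a limma adjusted p of 2.82e-04, a size close to the 0.90 of Ythdc2. Xrn1, the exonuclease that binds YTHDC2, was at 6.49 and 6.44 FPKM in differentiation, against 7.32 and 7.48 FPKM in control. Its log2 fold change of -0.17 passed narrowly, at a limma adjusted p of 0.0424, and the call was lost without any 1 of the 4 libraries, at limma adjusted p from 0.117 to 0.165. Cbll1, a subunit associated with the m6A writer, and Ythdf2, a cytoplasmic m6A reader, rose by 1.15 and 0.49 on the log2 scale. Igf2bp1, an RNA-binding protein known as an m6A reader from human cells, fell by 0.68. Its paralogs went both ways: Igf2bp2 was called lower, at -0.75, and Igf2bp3 higher, at 0.85. Both paralogs were named after their values were seen.

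MEIOC and YTHDC2 are known to lower transcripts of the mitotic cycle. Of 26 such genes tested, 9 rose and 9 fell (34.6% each, against 29.6% and 27.0% of all features), with a median log2 fold change of -0.03, so the list as a whole was close to the other features. Ccna2, the cyclin best known as a target of the complex in the mouse, was at 8.86 and 8.76 FPKM in the differentiation libraries, against 17.7 and 17.2 FPKM in the control libraries. On the log2 scale it fell by 0.91, at a limma adjusted p of 2.82e-04, and the groups did not overlap. Ccnb1, a mitotic cyclin B, fell to 10.6 ± 0.335 FPKM in differentiation, against 21.6 ± 0.240 FPKM in control (SD, n = 2 each). Ccnd2, a G1 cyclin of spermatogonia, fell to 27.3 ± 0.653 FPKM, against 67.7 ± 0.051 FPKM in control (SD, n = 2 each). The cyclins of the list went both ways: Ccnb2, Ccne1 and Ccne2 were called higher, and Ccnd3 was called lower. Those last cyclins were named after their values were seen. Ccnd2 is also a marker of differentiating spermatogonia. Of 16 tested markers of undifferentiated spermatogonia, 13 fell (81.2%, against 27.0% of all features) and 1 rose in the same libraries. Their part in these changes was not tested. In contrast, the mitotic and meiotic kinase Aurka rose to 24.3 ± 0.592 FPKM in differentiation, against 8.94 ± 0.514 FPKM in control. Cdc20, an activator of the anaphase-promoting complex, rose to 67.2 ± 0.981 FPKM, against 39.8 ± 0.836 FPKM in control.

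**Figure D4:**
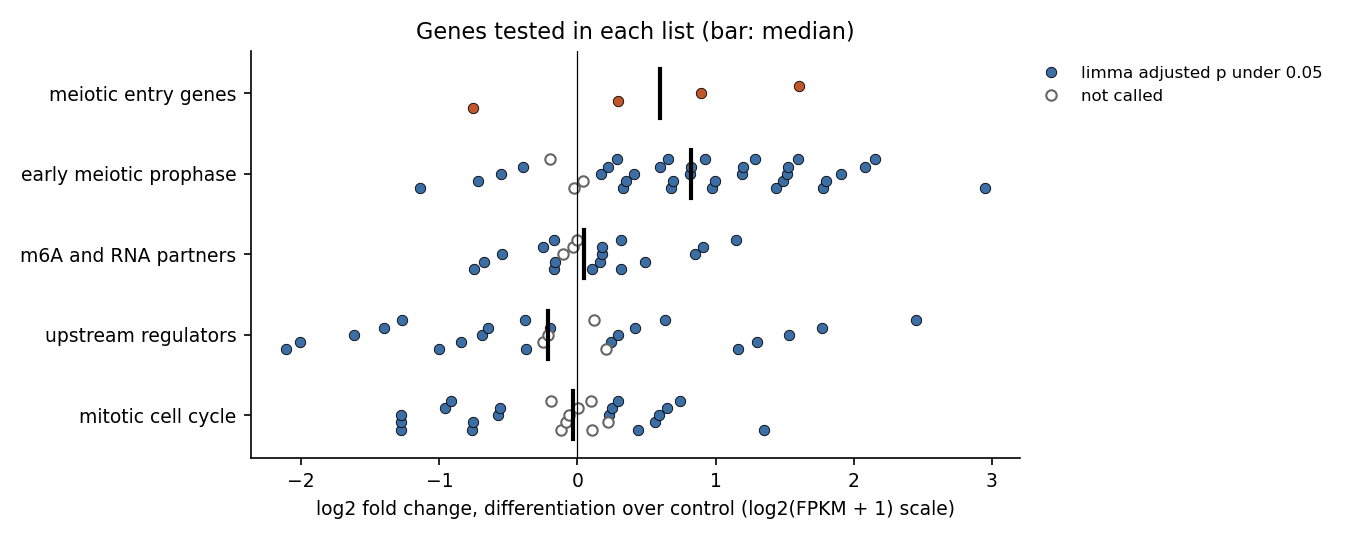
Log2 fold change of differentiation over control for each gene tested in 5 lists, with filled points for a limma adjusted p under 0.05 (orange for the meiotic entry genes, blue for the rest), open points for genes not called and a bar at the median of each list; vertical offsets only separate points. Early meiotic prophase genes lie mostly to the right (median 0.82), while upstream regulators, m6A and RNA partners and mitotic genes spread to both sides (medians -0.21, 0.05 and -0.03).

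The protein-coding genes nearest to each member were found by Euclidean distance between log2(FPKM + 1) values over the 4 libraries, among 14396 candidates, so that both level and change count. Nearest to Stra8 were Gm10260 (distance 0.15) and the ribosomal protein genes Rpl4 (0.17) and Rps15 (0.19). Rpl4, for example, averaged 143 FPKM in differentiation and 255 FPKM in control. Nearest to Gm4969 were Sh3gl1 (0.03), Nktr (0.07) and Ubp1 (0.07). Nearest to Ythdc2 were Prc1, a spindle midzone protein, Phtf1 and Angel1, at 0.09, 0.09 and 0.10. Meioc had no neighbour as close: Atxn7l3b (0.32), Sycp2 (0.34) and Dpep3 (0.44) came nearest. Of these 12 genes, only Sycp2 is on the prophase list. With 4 libraries, such likeness describes these values and no more.

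**Figure D5:**
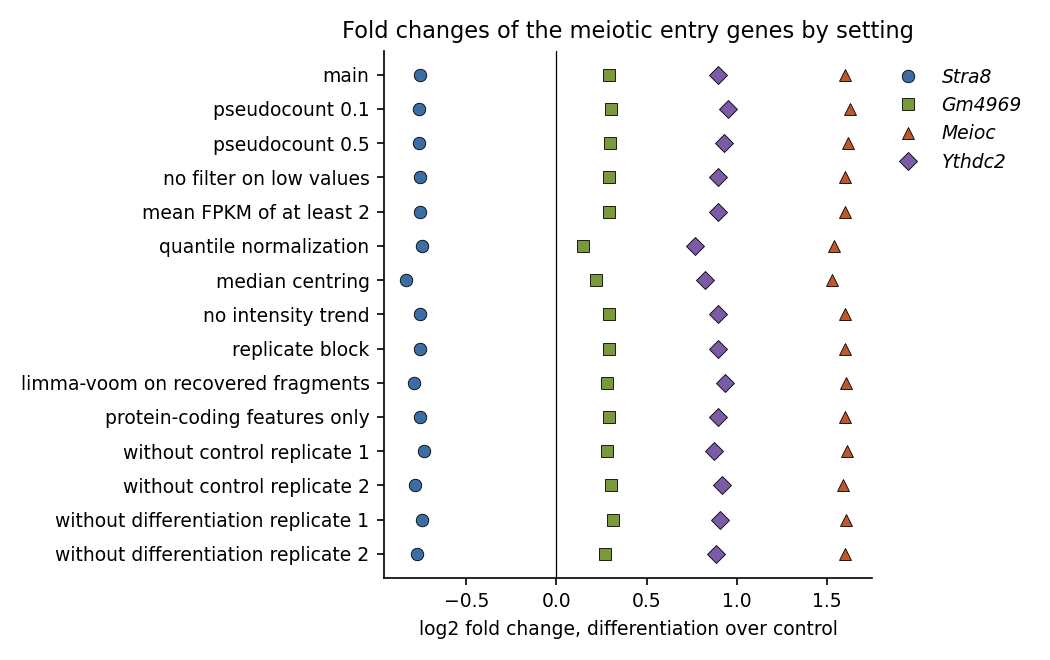
Log2 fold change of differentiation over control for the 4 meiotic entry genes under the reported setting (main) and 14 alternatives, listed down the page. Stra8 stays between -0.83 and -0.73, Meioc between 1.53 and 1.63, and Ythdc2 between 0.77 and 0.95; Gm4969 reaches its lowest value, 0.15, after quantile normalization.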

How the data were processed

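Per the labels' protocols, TRIzol-extracted total RNA was depleted of ribosomal RNA. Per the submitters' processing notes, HISAT2 and GRCm38 were used. The counting tool, its annotation and its strand setting were not given in the sources used here. Deposited values were the authors' FPKM for each feature and library. Beside them stood the authors' log2 fold change, p-value and adjusted p, from an unnamed test. Fragment numbers were recovered from FPKM with GENCODE M21 exon lengths (31536 features), with 96.2% of values under 300 whole within 0.05. limma 3.58.1 (R 4.3.3) was fitted to log2(FPKM + 1) of the 23138 features that averaged 0.5 FPKM or more, with an intensity trend, group as the only term, and 2 residual and 2.14 prior degrees of freedom. Tests were two-sided and called at 0.05 after Benjamini-Hochberg adjustment over all features. Fold changes on this scale understate the change of low genes. The fit was tested on simulated data. Members and lists were chosen with earlier results of these data known. Genes were named by a rule: the members, 10 genes picked by role, the 4 smallest p-values of each pathway list and the 3 nearest genes of each member. For symbols with several features the most abundant was used. Alternatives were the pseudocount, filter, scaling, prior variance, replicate block and each library left out; limma-voom on recovered fragments and protein-coding features alone were chosen after seeing the data. Circular RNA was not analysed here. Other steps used scipy 1.17.1, pandas 2.3.3, numpy 2.4.6 and matplotlib 3.10.9 in Python 3.11.15.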

Additional observations from a re-analysis of the deposited data

How the results depend on the processing

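The direction and the call of Stra8, Gm4969, Meioc and Ythdc2 held under each of 14 alternatives, and the partner ratios kept their direction under each of 5. Leaving out 1 library at a time, the log2 fold changes ranged from -0.78 to -0.73 for Stra8, 0.27 to 0.32 for Gm4969, 1.59 to 1.61 for Meioc and 0.87 to 0.92 for Ythdc2. With a replicate block the Gm4969 log2 fold change was 0.29 (limma adjusted p = 8.76e-03), and the block changed no call of the members. The deviations of same-numbered libraries from their group means were not correlated across features (correlation -4.08e-04). With 2 libraries per group the deviations are mirror images within a group, but those of different groups are free to correlate. By this measure no effect shared by same-numbered libraries was visible across features. Whether such libraries were prepared together was not tested. The block called 6510 features higher and 5788 lower, against 6848 and 6246 without it. In the m6A and RNA partner list the count of higher genes was 6 in place of 10 after quantile normalization, after median centring and without the intensity trend. Its count of lower genes was 4 in place of 7 without the intensity trend and 3 with the replicate block. Both counts also fell without any 1 library, as did those over all features. The cause was not tested. Xrn1 also lost its call with no filter, without the trend and with the block (limma adjusted p = 0.0509, 0.0611 and 0.0875). With 2 libraries per group, no permutation over libraries can pass 0.05.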
